A study of Macaca mulatta with 9 samples.

Results

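The comparison described here set small antral follicles (SAFs) of rhesus macaques on a Western-style diet (WSD) against SAFs of macaques on a normal, standard diet (control). Its members are the 3 arrays labelled Western-style diet without added testosterone and the 3 labelled normal diet, which makes 6 of the 9 arrays in the series. The remaining 3 arrays came from females on the WSD with chronically elevated androgen (WSD+T), and did not enter the fit. All females were young adults sampled in the early follicular phase, and the labels number the 3 arrays per group as biological replicates. Ovaries were collected at or near menses, and follicles judged healthy by a visible antrum and by the absence of dark oocytes or granulosa cells were pooled by ovary, so each array reads a pool of several follicles from 1 of 3 ovaries per group. Surrounding stroma was trimmed off, and the RNA came from all cells of the follicle: granulosa cells, the wall and the cumulus-oocyte complex. In such bulk samples, fewer cells of a type and less RNA per cell cannot be told apart. The labels used here name no composition or length of the diet.

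An antral follicle is a fluid-filled unit in which granulosa cells surround the oocyte and theca cells form the outer wall. Theca cells make androgens, and granulosa cells divide, convert androgens into oestrogens, and secrete inhibins and anti-Müllerian hormone. Granulosa cells also release hedgehog ligands, which act on the theca through the receptor patched. At ovulation, epidermal growth factor-like ligands spread the luteinizing hormone signal, and cumulus cells build a hyaluronan matrix around the oocyte.

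Of 52865 probe sets in the deposited table, 99 were array controls, and 26383 of the other 52766 passed a filter on mean signal and were tested. Values are MAS5 signals, an estimate of the brightness of a probe set on a linear scale, and fold changes are differences of log2(signal + 16), WSD minus control. The threshold was an adjusted p of 0.05 in limma with Benjamini-Hochberg adjustment over all tested probe sets, and a gene or probe set past it is called changed. Groups are described as apart where all 3 WSD arrays lay on one side of all 3 control arrays. Where a gene has several probe sets, list counts use the brightest.

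Arrays of the control group correlated at 0.949 to 0.960 over the tested probe sets, and arrays of the WSD group at 0.863 to 0.949. The mean variance within the WSD group was 0.328, against 0.153 in the control group, on the log2 scale. Signals of 13 macrophage and myeloid marker genes summed to 12990, 2466 and 3026 on control arrays 1, 2 and 3, and to 20790, 29290 and 1529 on WSD arrays 1, 2 and 3. The myeloid level therefore split both groups, and WSD array 3 held the lowest of the 6. Granulosa cell markers (12 genes) summed to between 16140 and 20360 in control and between 7980 and 14840 in WSD, with the lowest sum on WSD array 2. Theca cell markers (8 genes) summed to between 10410 and 14050 in control and between 9934 and 11920 in WSD, and oocyte markers (10 genes) to between 2640 and 3248 against 2956 and 3301. Control arrays 1 and 3 stood apart from the other 7 arrays of the series in 9 bright probe sets, 4 of them probe sets for mitochondrial transcripts, and none of the 9 was called. The part of these array differences in the results below was not tested, apart from the fits that leave out an array.

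**Figure D1:**
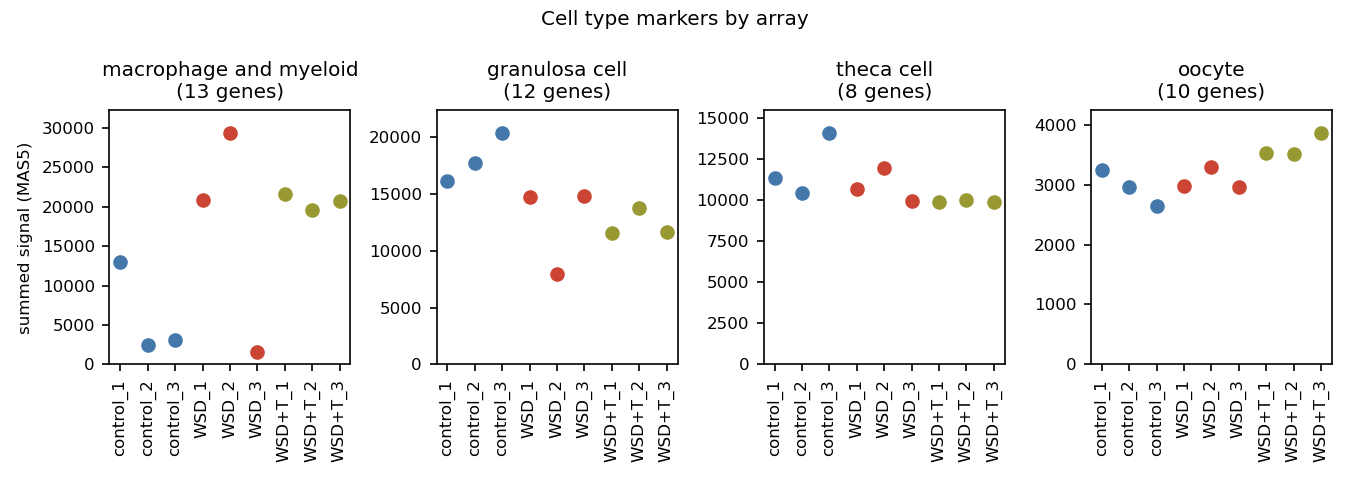
Summed MAS5 signal of the marker genes of 4 cell types (vertical axes, linear from 0) on each of the 9 arrays (1 point per array). The myeloid sum is 20790 and 29290 on WSD arrays 1 and 2 but 1529 on WSD array 3, while the theca sums of control and WSD overlap.

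Between WSD and control SAFs, 913 of 26383 probe sets were called, which is 3.46% of those tested. Of these, 305 were higher in WSD (1.16% of those tested) and 608 were lower (2.30%), and 785 differed by at least 2-fold. They belong to 476 named genes, 158 higher and 320 lower, including 2 genes (CLIP1 and MBLAC2) with probe sets called in both directions. The groups were apart for all 913 called probe sets, against 31.0% of all tested probe sets. Counted by gene, 3.53% of 9961 genes were called, 1.00% higher and 2.53% lower, and the median log2 fold change of all genes was -0.08. The share of lower calls depends on the scaling: it was 66.6% with the signals as deposited and 43.1% after each array was centred on its median, which moved the median of all tested probe sets from -0.09 to 0.04. The smallest adjusted p was 0.0274, so every call lies close to the threshold. Leaving out 1 array ended nearly all calls: none remained without control array 1, control array 3 or WSD array 1, and 5 and 1 were made without control array 2 and WSD array 2. Without WSD array 3, 1628 probe sets were called, 747 of them among the 913. In each of the 6 fits, every one of the 913 that was still tested (903 to 909) kept an unadjusted p below the threshold. Each also kept its direction, which was fixed in advance because the groups were apart. Of the 75 called probe sets named below, 69 were also called without WSD array 3 and 1, for ZNF655, without WSD array 2, and their adjusted p over the 6 fits ran from 0.0373 to 0.173.

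**Figure D2:**
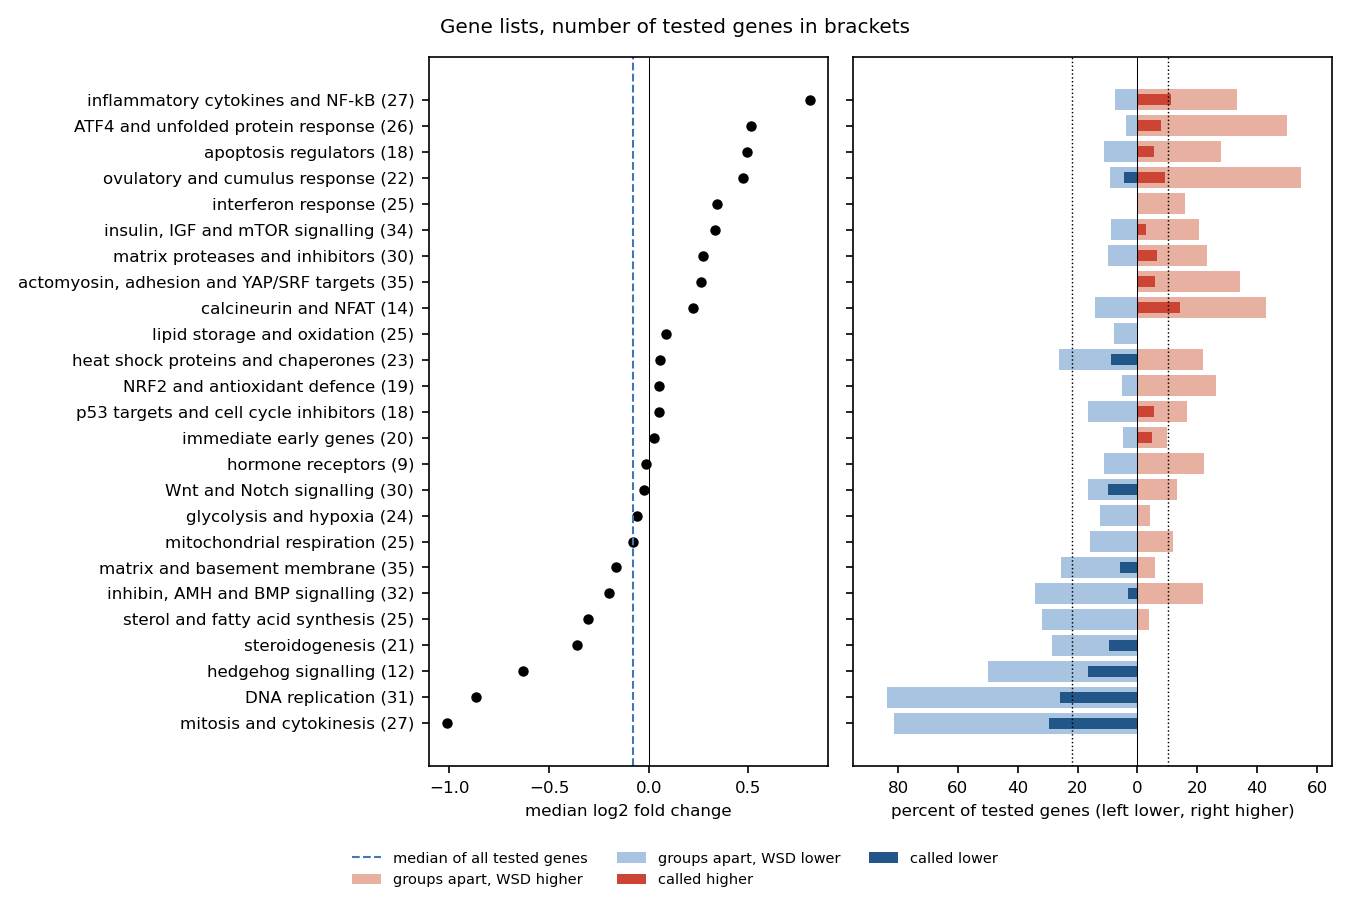
Left, median log2 fold change of the tested genes of 25 gene lists (points) and of all tested genes (dashed line). Right, percent of each list's genes with groups apart (pale bars) and called (dark bars), lower in WSD to the left and higher to the right, with dotted lines at the 22.0% and 10.3% of all genes whose groups were apart. The lists for DNA replication and for mitosis have the lowest medians, -0.86 and -1.01.

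Genes of cell division had lower values in WSD follicles across both lists for this process. Of 31 tested DNA replication genes, 8 fell, against 2.53% of all genes called lower, none rose, and all 31 had a negative log2 fold change, with a median of -0.86. Of 27 genes of mitosis and cytokinesis, 8 fell, none rose, and all 27 were negative, with a median of -1.01. The groups were apart in 26 and 22 genes of the lists, against 22.0% of all genes lower and apart. The medians stayed negative under each of the alternative settings, between -0.96 and -0.71 for replication and between -1.10 and -0.81 for mitosis.

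MKI67, the gene of the proliferation marker Ki-67, read 444, 736 and 438 in control and 122, 78.0 and 108 in WSD. The lowest control array was more than 3 times the highest WSD array, and the log2 fold change was -2.20 (SE 0.27, adjusted p = 0.0301). The 2 other MKI67 probe sets, both dimmer, were at -1.59 and -0.75 without a call. Among the genes that license and start replication, CDC6, which loads the replicative helicase, read 521, 619 and 479 in control and 155, 195 and 171 in WSD. Its groups were apart and the log2 fold change was -1.55 (SE 0.18, adjusted p = 0.0301). MCM3, a helicase subunit, read 1602, 1638 and 1471 in control and 485, 578 and 625 in WSD, and fell with a log2 fold change of -1.46 (SE 0.17, adjusted p = 0.0301). MCM2, another subunit, read 742, 731 and 717 in control and 254, 277 and 336 in WSD, a log2 fold change of -1.30 (SE 0.17, adjusted p = 0.0306). CDC45, which joins the active helicase, read 301, 284 and 306 in control and 118, 121 and 115 in WSD, a log2 fold change of -1.22 (SE 0.15, adjusted p = 0.0301). All 3 WSD arrays lay below all control arrays in each of these genes. The initiation factor MCM10 (-1.61), the chromatin assembly factor CHAF1A (-1.16), the helicase partner GINS1 (-1.11) and the polymerase subunit POLA2 (-1.08) also fell. Smaller log2 fold changes, not called, were those of the sliding clamp PCNA (-0.43), MCM4 (-0.38) and POLE2 (-0.21). E2F1 and E2F2, activators of S phase genes, had log2 fold changes of -1.22 and -1.76 and were not called.

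In mitosis, the spindle assembly factor TPX2 read 741, 942 and 755 in control and 326, 227 and 278 in WSD, a log2 fold change of -1.50 (SE 0.20, adjusted p = 0.0313). FOXM1, the transcription factor of the G2 and M phase programme, read 684, 738 and 584 in control and 287, 217 and 259 in WSD, a log2 fold change of -1.34 (SE 0.19, adjusted p = 0.0316). In both genes the WSD arrays were all below the control arrays. The chromosome motor KIF4A read 505, 609 and 449 in control and 213, 133 and 157 in WSD, and its log2 fold change was -1.56 (SE 0.23, adjusted p = 0.0333). The spindle pole gene ASPM (-1.64), the condensin subunits NCAPG (-1.30) and SMC2 (-1.01) and the cytokinesis factor ECT2 (-1.11) fell too. The kinase CDK1 had a log2 fold change of -0.93 and cyclin B1 (CCNB1) one of -0.87, with groups apart but neither called. PTTG1, which encodes securin, had the value nearest to 0, -0.11. Without WSD array 3, 12 replication and 9 mitosis genes were called, and without any one of the other 5 arrays none was.

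**Figure D3:**
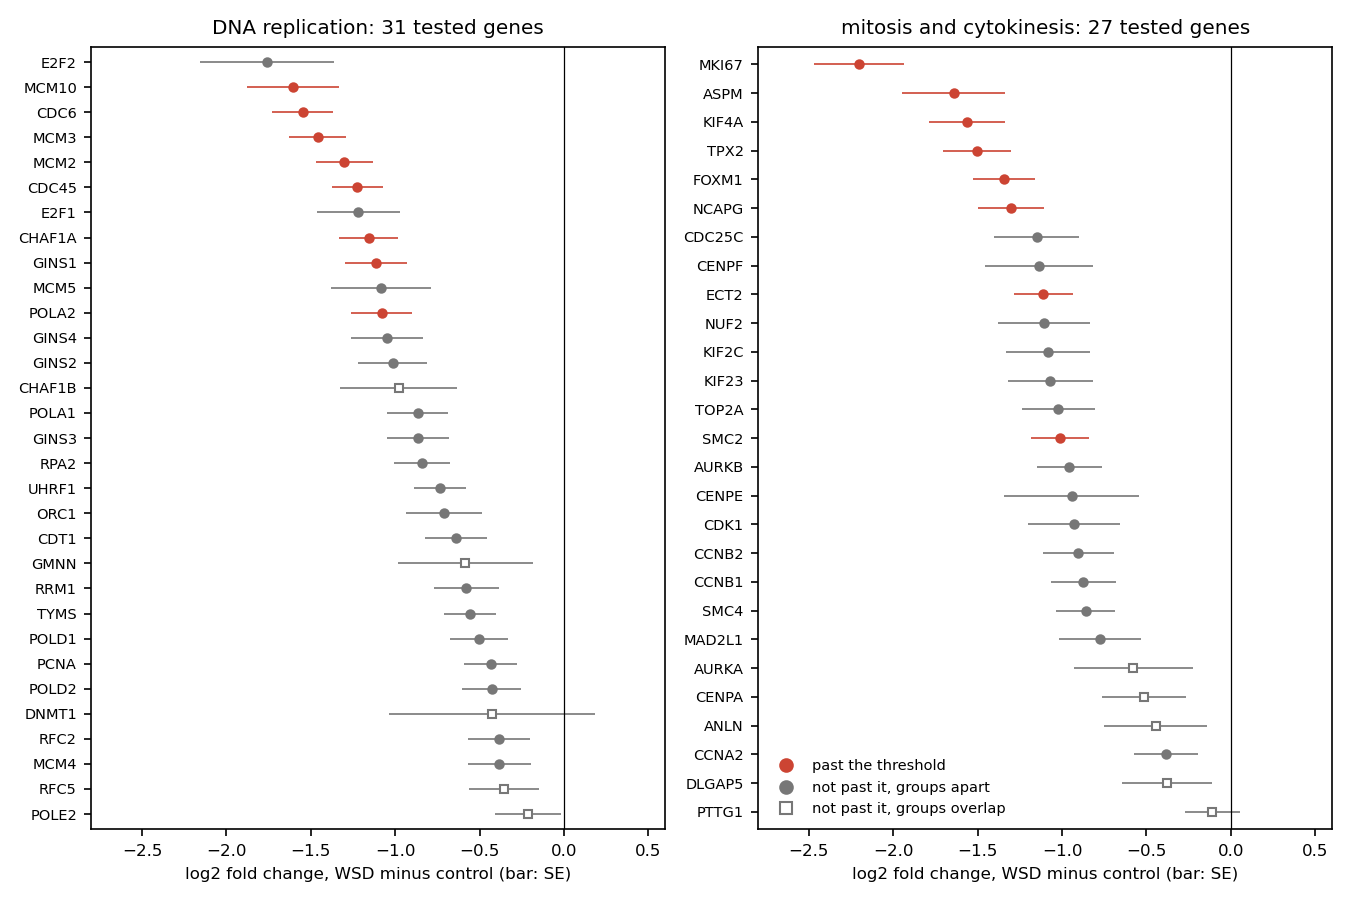
Log2 fold change of WSD minus control (horizontal axis, bars are the SE of the limma fit on 6 arrays) for each tested gene of DNA replication (left) and of mitosis and cytokinesis (right). All points lie left of 0, and the 8 red points in each panel are the called genes.

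The 25 largest decreases included 3 genes of checkpoint control and DNA repair, for which no list was tested. CHEK1, the checkpoint kinase that responds to stalled replication, read 574, 489 and 566 in control and 136, 126 and 117 in WSD, a log2 fold change of -1.97 (SE 0.16, adjusted p = 0.0274). Its arrays were tightly grouped and the groups were far apart. RAD54B, a recombination helicase, read 362, 447 and 338 in control and 93.4, 105 and 61.6 in WSD, with a log2 fold change of -1.97 (SE 0.23, adjusted p = 0.0301). NEIL3, a DNA glycosylase, read 431, 748 and 382 in control and 126, 114 and 102 in WSD, with a log2 fold change of -1.99 (SE 0.27, adjusted p = 0.0316). Both were lower on every WSD array than on any control array.

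Over all genes 1.00% were called higher, and of 18 genes of the list of p53 targets and cell cycle inhibitors, 1 rose. This was CDKN1A, which encodes the cyclin-dependent kinase inhibitor p21: it read 598, 368 and 722 in control and 2066, 1392 and 1680.29 in WSD, a log2 fold change of 1.61 (SE 0.29, adjusted p = 0.0434). The lowest WSD array was above the highest control array. Other p53 targets did not pass the threshold, among them MDM2 (0.52), GADD45A (0.16), BAX (-0.52) and BTG2 (-0.22), and the list's median was 0.05, with a sign that changed between settings. The inhibitors CDKN2C and CDKN1B had log2 fold changes of -1.14 and -0.77 and were not called.

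The signals that granulosa cells send to the theca included the largest decrease among the called genes. IHH, the Indian hedgehog ligand of granulosa cells, read 628, 956 and 627 in control and 25.4, 5.70 and 45.5 in WSD. The lowest control array was over 10 times the highest WSD array, the means were 737 ± 189.5 in control and 25.6 ± 19.9 in WSD (SD, n = 3), and the log2 fold change was -4.28 (SE 0.40, adjusted p = 0.0274). A dimmer IHH probe set was also called, with a log2 fold change of -2.28. PTCH1, the hedgehog receptor and itself a target of the pathway, read 208, 290.45 and 197 in control and 50.05, 29.2 and 67.4 in WSD, a log2 fold change of -1.96 (SE 0.28, adjusted p = 0.0326). Again the groups did not overlap, and another PTCH1 probe set was at -0.60 without a call. Of 12 tested genes of hedgehog signalling, these 2 fell, against 2.53% of all genes called lower, and none rose. A negative log2 fold change was found in 11. The median over the list was -0.63, between -0.79 and -0.45 over the alternative settings. The target GLI1 read 61.6, 114 and 87.0 in control and 21.9, 22.1 and 50.04 in WSD, and the inhibitory receptor HHIP read 192, 594 and 182 in control and 50.5, 98.8 and 119 in WSD. Both had their groups apart without passing the threshold, at adjusted p = 0.0854 and 0.13. The signal transducer SMO had a log2 fold change of -0.25 and was not called.

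Inhibins lower the release of follicle-stimulating hormone by the pituitary, and INHBB encodes the beta subunit of inhibin B. INHBB read 106, 148 and 158 in control and 29.9, 5.70 and 12.7 in WSD, and its log2 fold change was -2.31 (SE 0.31, adjusted p = 0.0313). The WSD values are low signals, close to or below the filter level of 20.8, and lay under all control values. INHA, the shared alpha subunit, read 957, 2605 and 2535 in control and 336, 306 and 728 in WSD, with groups apart, a log2 fold change of -2.09 and an adjusted p of 0.0679 that missed the threshold. INHBA, the subunit of inhibin A and activin A, read 1417, 1453 and 1353 in control and 2113, 2186 and 1760.31 in WSD, a log2 fold change of 0.51 (SE 0.17, adjusted p = 0.132). AMH, the gene of anti-Müllerian hormone, read 383, 226 and 336 in control and 214, 81.6 and 185 in WSD, a log2 fold change of -0.97 (SE 0.37, adjusted p = 0.181). For AMH and INHA the WSD arrays were all lower, and for INHBA all higher, than the control arrays, but none of the 3 was called. Of 32 genes of inhibin, AMH and BMP signalling, INHBB was the 1 that fell, against 2.53% of all genes called lower, and none rose. Groups were apart with WSD lower in 11 and with WSD higher in 7, against 22.0% and 10.3% of all genes. Follistatin (FST, -0.88) and the BMP target ID3 (-1.01) were on the lower side, and the ligands BMP4 (1.75) and BMP2 (1.29) on the higher side, all 4 as log2 fold changes that were not called.

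Of 21 tested genes of steroidogenesis, 2 fell and none rose, and in 6 the groups were apart with WSD lower, against 2.53% of all genes called lower and 22.0% apart and lower. CYP17A1, the theca enzyme that makes androgens, read 559, 612 and 800.14 in control and 145, 295 and 168 in WSD, a log2 fold change of -1.67 (SE 0.29, adjusted p = 0.0419). HSD3B2, which converts pregnenolone into progesterone, read 810.12, 1077 and 1040.11 in control and 482, 498 and 408 in WSD, a log2 fold change of -1.04 (SE 0.19, adjusted p = 0.0435). Each WSD array was below each control array for both enzymes. STAR, which carries cholesterol into mitochondria, read 2788, 1853 and 2896 in control and 3081, 4082 and 2416 in WSD, with overlapping groups and a log2 fold change of 0.34 (SE 0.27, adjusted p = 0.487). CYP19A1, the aromatase that makes oestrogens, read 185, 587 and 306 in control and 524, 139 and 154 in WSD. Here WSD array 1 was within the control range and the other WSD arrays below it, and the log2 fold change was -0.48 (SE 0.59, adjusted p = 0.654). HSD17B1, which makes oestradiol in granulosa cells, read 1017, 828 and 1569 in control and 589.72, 59.5 and 587 in WSD, with groups apart, a log2 fold change of -1.88 and an adjusted p of 0.225. The lowest of its values was on WSD array 2, which also had the lowest granulosa marker sum. The transcription factors GATA4 (-1.05), NR5A2 (-0.83) and NR5A1 (-0.53) were not called, and the list's median was -0.36, between -0.41 and -0.10 over the settings.

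Of 9 tested hormone receptors 0 were called in limma, 1 had an unadjusted p under 0.05, and their median was -0.02. ESR2, the oestrogen receptor beta of granulosa cells, read 38.7, 53.2 and 35.1 in control and 28.8, 8.30 and 41.6 in WSD, a log2 fold change of -0.54 (SE 0.34, adjusted p = 0.375). The glucocorticoid receptor NR3C1 (-0.40) and the leptin receptor LEPR (-0.25) were not called. FSHR, LHCGR, INSR, CYP11A1 and GDF9 had no probe set paired with that symbol alone in the annotation used, and ESR1 did not pass the signal filter, so these 6 genes are not analysed here.

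**Figure D4:**
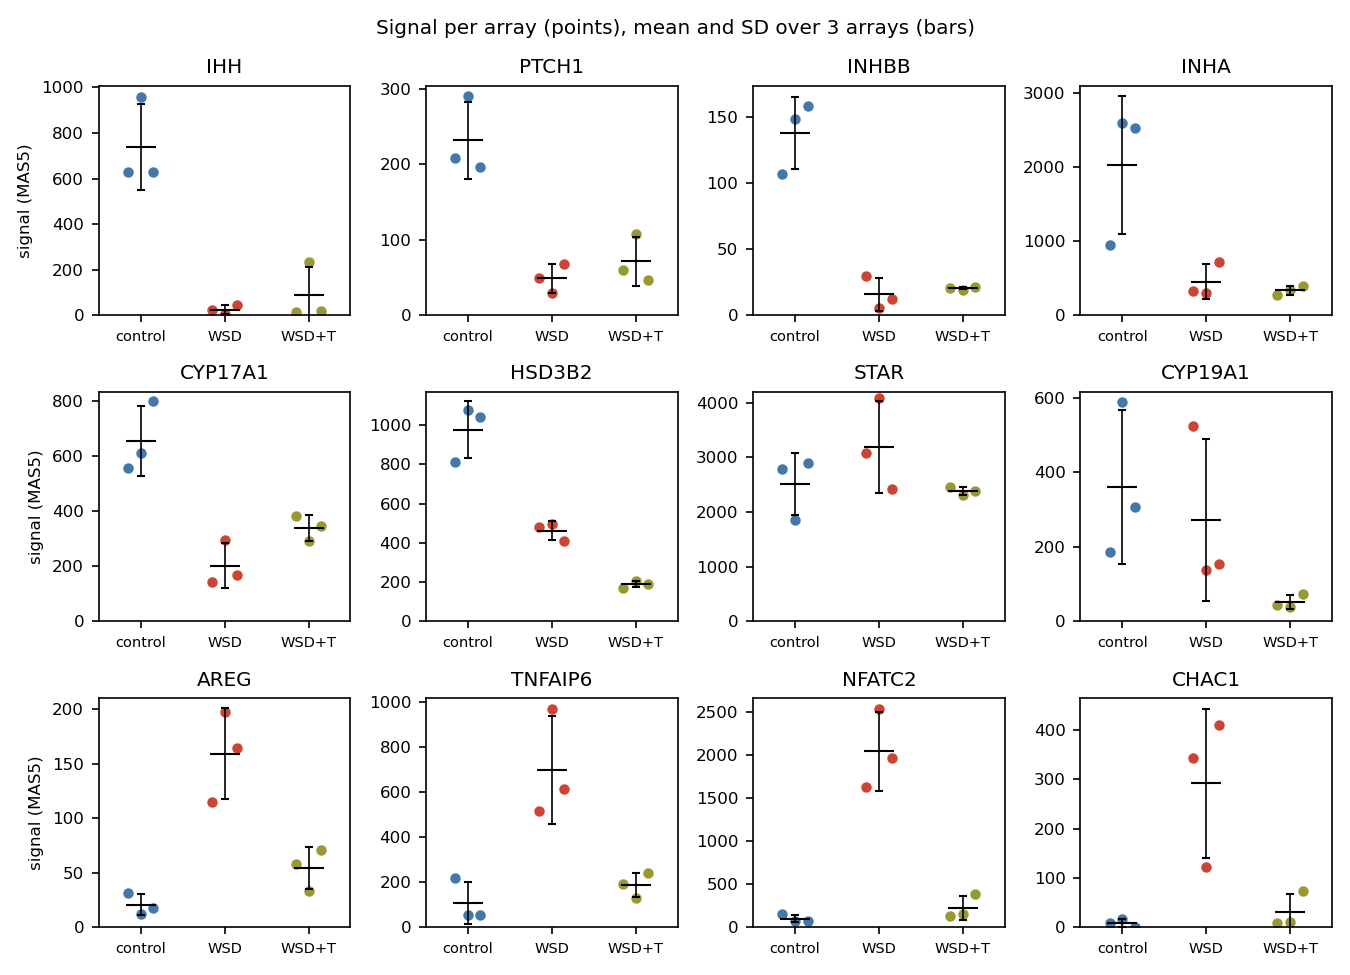
MAS5 signal (vertical axes, linear from 0) of 12 genes on each array of the 3 groups (points), with the mean and SD over 3 arrays (black bars). IHH, PTCH1, INHBB, CYP17A1 and HSD3B2 lie lower on all WSD arrays than on any control array, and AREG, TNFAIP6, NFATC2 and CHAC1 higher; STAR and CYP19A1 overlap.

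Genes of the ovulatory and cumulus response gave calls in both directions in these follicles of the early follicular phase. Of 22 tested genes, 2 rose and 1 fell, against 1.00% of all genes called higher and 2.53% called lower. The groups were apart with WSD higher in 12, against 10.3% of all genes. The list's median was 0.47, between 0.38 and 0.61 over the settings. AREG, the epidermal growth factor-like ligand amphiregulin, read 31.4, 12.7 and 17.8 in control and 115, 197 and 165 in WSD, a log2 fold change of 2.26 (SE 0.27, adjusted p = 0.0301). Control signals of AREG were low relative to the pseudocount, the constant added to every signal, so the size of its fold change depends on that choice. TNFAIP6, which cross-links hyaluronan in the cumulus matrix, read 218, 54.9 and 56.6 in control and 515, 970.1 and 615 in WSD by its brighter probe set, a log2 fold change of 2.70 (SE 0.51, adjusted p = 0.0461). In both genes the WSD arrays were all above the control arrays, and a second TNFAIP6 probe set was called as well, with a log2 fold change of 2.46. EGFR, the receptor of amphiregulin, moved the other way: it read 73.8, 88.9 and 49.5 in control and 16.7, 7.39 and 18.7 in WSD, a log2 fold change of -1.51 (SE 0.25, adjusted p = 0.0399). HAS2, which synthesizes hyaluronan, read 145, 98.5 and 26.6 in control and 1213, 284 and 702 in WSD, and PTX3, which stabilizes the matrix, read 593, 40.5 and 126 in control and 882, 1314 and 684 in WSD. Their groups were apart with adjusted p = 0.0673 and 0.135, so neither was called. The cytokine LIF (1.75), RUNX1 (1.00), CEBPB (1.03) and the progesterone receptor PGR (0.28) had positive log2 fold changes with groups apart, and the protease ADAMTS1 a value of -0.91 with groups that overlapped.

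NFATC2, a transcription factor that calcineurin moves into the nucleus, had the largest increase among the called genes. NFATC2 read 152, 76.5 and 77.7 in control and 1628, 2540.24 and 1967 in WSD. Its lowest WSD array was over 10 times the highest control array. The means were 102 ± 43.0 in control and 2045 ± 461 in WSD (SD, n = 3), the log2 fold change was 4.16 (SE 0.30, adjusted p = 0.0274), and its other probe set was also called, with 4.32. Of 14 genes of the calcineurin and NFAT list, this gene and NFATC1 rose, against 1.00% of all genes called higher, and none fell. NFATC1 read 78.7, 114 and 61.0 in control and 239, 193 and 254 in WSD, a log2 fold change of 1.31 (SE 0.24, adjusted p = 0.0445). The calcineurin inhibitor RCAN1 read 620.21, 332 and 339.88 in control and 1272, 944 and 1038 in WSD, with groups apart and a log2 fold change of 1.35 that was not called. The calcium channel subunit ORAI1 (1.03) and the catalytic subunits PPP3CB (0.10) and PPP3CC (0.35) were not called, and NFATC3 had a log2 fold change of -0.54.

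CHAC1 and SLC7A11, of the list of the amino acid and unfolded protein response, were among the 25 largest increases. CHAC1, a target of ATF4 that degrades glutathione, read 8.76, 16.9 and 1.64 in control and 343, 122 and 410.02 in WSD. Its WSD arrays differed among themselves, yet all were above every control array, and the log2 fold change was 3.51 (SE 0.46, adjusted p = 0.0306). SLC7A11, the cystine and glutamate exchanger, read 16.5, 17.5 and 10.3 in control and 144, 162 and 843 in WSD, a log2 fold change of 3.25 (SE 0.63, adjusted p = 0.0487). Control signals of both genes were close to the pseudocount of 16 or below it, so the size of these fold changes depends on that choice. Of 26 tested genes of the list, these 2 rose, against 1.00% of all genes called higher, and none fell. In 13 the groups were apart with WSD higher, against 10.3% of all genes. The median was 0.51, between 0.33 and 0.64 over the settings. ASNS, the asparagine synthetase, read 165, 146 and 172 in control and 556, 394 and 1268 in WSD, with a log2 fold change of 1.92 and an adjusted p of 0.0567. DDIT3 (0.81), HERPUD1 (1.07), XBP1 (0.74) and ATF4 itself (0.49) were positive and not called, and the serine synthesis enzyme PHGDH was at -0.52. The NRF2 and antioxidant list, to which cystine import also relates, had 0 calls in limma among 19 genes, 6 at an unadjusted p under 0.05, and a median of 0.05 whose sign changed between settings, with SRXN1 (1.27) and metallothionein MT2A (1.24) at its upper end.

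**Figure D5:**
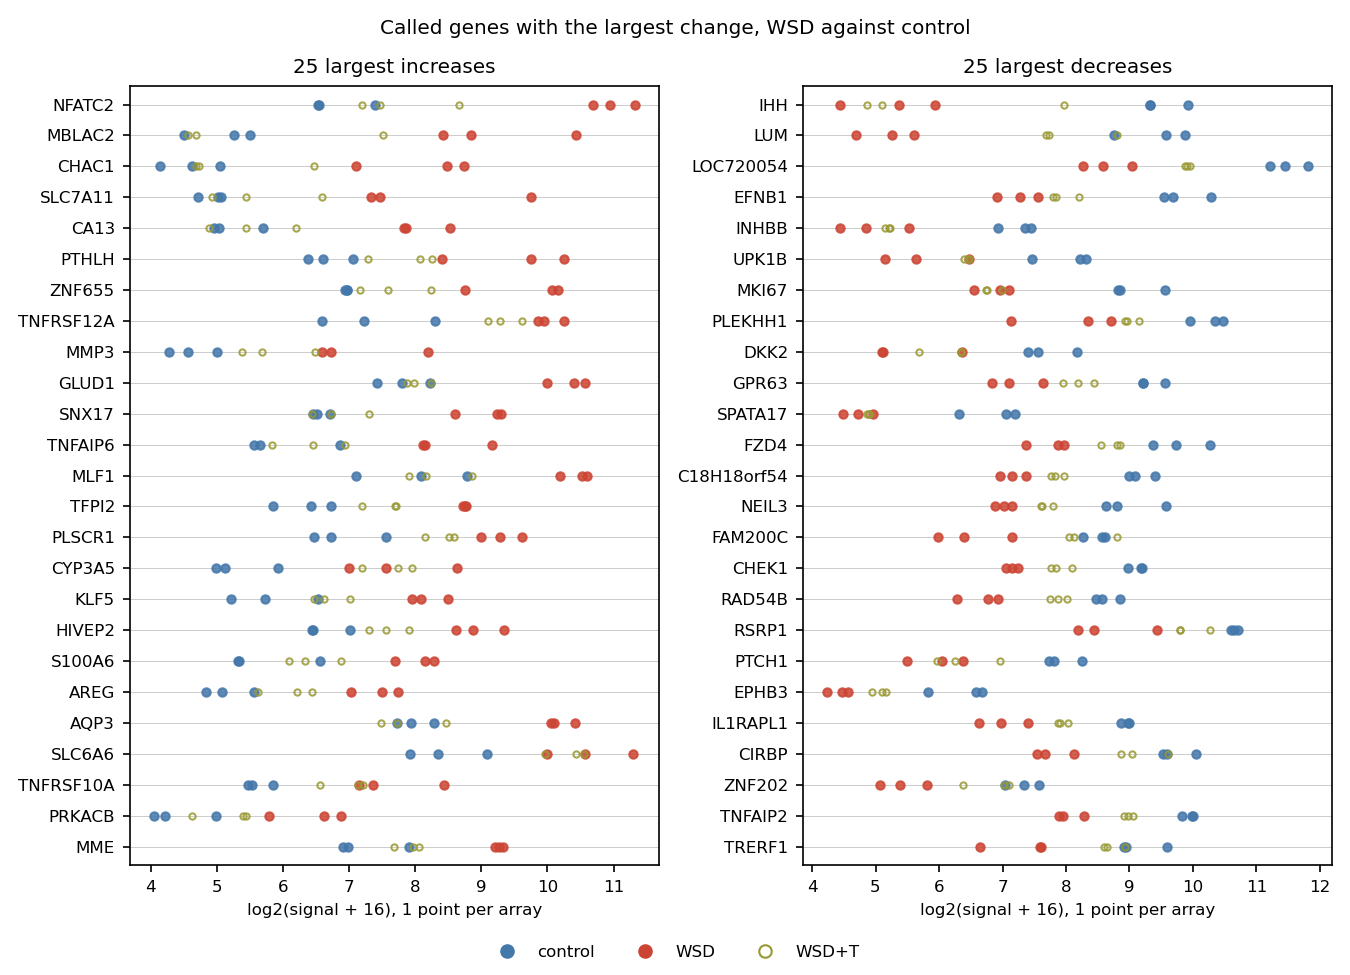
Log2(signal + 16) (horizontal axes) on each array of control, WSD and WSD+T (1 point per array) for the 25 called genes with the largest increase (left) and the 25 with the largest decrease (right). NFATC2 and IHH head the panels with log2 fold changes of 4.16 and -4.28, and in every gene the WSD points do not overlap the control points.

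Of 35 genes of the matrix and basement membrane list 2 fell, against 2.53% of all genes called lower, and none rose, with a median of -0.16. LUM, the small collagen-binding proteoglycan lumican, read 920.27, 749 and 417 in control and 22.4, 32.4 and 9.79 in WSD. The lowest control array was over 10 times the WSD arrays, the log2 fold change was -4.22 (SE 0.36, adjusted p = 0.0274), and its other probe set was called too, with -2.56. HSPG2, the basement membrane proteoglycan perlecan, read 1647, 1858 and 2189 in control and 646, 721 and 655 in WSD, a log2 fold change of -1.46 (SE 0.18, adjusted p = 0.0301). Both genes had groups apart, while the related proteoglycan decorin (DCN, -0.47) and the collagens COL1A1 (-0.16) and COL6A3 (0.05) were not called. Among 30 matrix proteases and inhibitors, 2 rose, against 1.00% of all genes called higher, and none fell. MMP3, the protease stromelysin, read 15.9, 3.43 and 7.78 in control and 80.9, 90.1 and 276 in WSD, a log2 fold change of 2.56 (SE 0.45, adjusted p = 0.0423). CTSK, cathepsin K, read 488, 455 and 578 in control and 1278, 1829 and 1148 in WSD, a log2 fold change of 1.43 (SE 0.23, adjusted p = 0.0368). The WSD arrays were all above the control arrays in both, although MMP3 was at or below a signal of 16 in control. MMP1 read 589, 38.1 and 57.2 in control and 793, 1367 and 972 in WSD, and PLAUR, the urokinase receptor, read 164, 43.9 and 89.1 in control and 298, 534 and 229.85 in WSD. Neither was called, at adjusted p = 0.109 and 0.0876, and the inhibitors TIMP1 (0.20) and TIMP3 (-0.04) were not called either.

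Of 35 genes of the actomyosin, adhesion and YAP/SRF target list, 2 rose, none fell, and 31 had a positive log2 fold change, with groups apart and WSD higher in 12. Over all genes, 1.00% were called higher and 10.3% were apart with WSD higher. TNFRSF12A, the receptor of the cytokine TWEAK, read 134, 80.1 and 298 in control and 1205, 910.43 and 977 in WSD, a log2 fold change of 2.65 (SE 0.42, adjusted p = 0.0375). LMNA, the nuclear lamin A and C gene, read 378, 276 and 378 in control and 1139, 1195 and 1072 in WSD, a log2 fold change of 1.69 (SE 0.19, adjusted p = 0.0298). The groups did not overlap in either gene. The YAP targets CCN1 (-0.26) and CCN2 (0.03) were not called, and the median of the list was 0.26. KRT8, a keratin in the list of surface epithelium markers, read 299.5, 348 and 406 in control and 1398, 739.61 and 1355 in WSD, a log2 fold change of 1.64 (SE 0.29, adjusted p = 0.0418). The other called genes of that list, LHX9 and UPK1B, fell, so its members did not move one way. UPK1B read 159.7, 303 and 282 in control and 33.5, 19.4 and 72.7 in WSD, a log2 fold change of -2.25 (SE 0.39, adjusted p = 0.0419) by that probe set, with its WSD arrays below all control arrays.

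Of 27 tested genes of inflammatory cytokines and NF-kB, 3 rose, against 1.00% of all genes called higher, and none fell. The list had the highest median of the 25 lists, 0.81. This median was 0.43 without WSD array 2 and 1.13 without WSD array 3. IL6ST, the shared signalling receptor of the interleukin-6 family, read 128, 75.0 and 120.44 in control and 314, 301 and 306 in WSD, a log2 fold change of 1.41 (SE 0.22, adjusted p = 0.0357). STAT3, the transcription factor downstream of that receptor, read 15.4, 13.3 and 21.7 in control and 87.2, 71.7 and 46.0 in WSD, a log2 fold change of 1.34 (SE 0.24, adjusted p = 0.0424). Control signals of STAT3 were low relative to the pseudocount, so the size of its fold change depends on that choice. RELB, a subunit of NF-kB, read 36.3, 40.2 and 69.8 in control and 145, 158 and 146 in WSD, a log2 fold change of 1.39 (SE 0.23, adjusted p = 0.0385). These 3 genes were higher on every WSD array than on any control array, as was every probe set called higher. The receptor subunit IL6R (1.75) and OSMR (0.85) had groups apart and were not called, while IL6 itself was at -0.22. NFKB2 (-1.26) and the receptor TNFRSF1B (-1.88) were lower on all WSD arrays without a call. The toll-like receptor gene TLR4 read 94.7, 26.9 and 10.8 in control and 419.94, 1045 and 7.10 in WSD, with WSD array 3 at or below the control level.

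Of 13 tested macrophage and myeloid markers 0 were called in limma, 0 had an unadjusted p under 0.05, 0 had groups apart, 12 had a positive log2 fold change, and the median was 1.12. Their summed signal ran from 2466 to 12990 in control and from 1529 to 29290 in WSD. CD68, a lysosomal macrophage protein, read 1353, 66.3 and 228 in control and 2287, 3295 and 92.0 in WSD, and the mannose receptor MRC1 read 2038, 284 and 189.83 in control and 3026, 3289.74 and 55.6 in WSD. Both were high on WSD arrays 1 and 2, intermediate on control array 1 and low on WSD array 3. On WSD array 3, where the myeloid sum was lowest, IL6ST and RELB were within the range of the other WSD arrays. STAT3 had its lowest WSD value there. All 3 genes were above control on that array, which held for every probe set called higher. The part of myeloid cells was not tested, either for IL6ST, RELB and STAT3 or for the other genes of the inflammatory list. Of 25 interferon response genes 0 were called in limma at the adjusted threshold and 4 at an unadjusted p under 0.05, and the median was 0.34. GBP1 (1.54) and ISG20 (2.17) had groups apart, and MX1 (0.29) and ISG15 (0.07) did not.

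Of 30 Wnt and Notch genes 3 fell, against 2.53% of all genes called lower, and none rose, with a median of -0.02, 14 positive and 16 negative log2 fold changes. The groups were apart with WSD lower in 5 and with WSD higher in 4, against 22.0% and 10.3% of all genes. FZD4, a frizzled receptor for Wnt ligands, read 646, 836 and 1213 in control and 218, 150.04 and 234 in WSD, a log2 fold change of -2.05 (SE 0.29, adjusted p = 0.0316). DKK2, a secreted modulator of Wnt signalling, read 153, 173 and 271 in control and 18.8, 18.2 and 66.6 in WSD, a log2 fold change of -2.18 (SE 0.40, adjusted p = 0.0442). HEYL, a Notch effector, read 254, 300.15 and 207 in control and 86.0, 119 and 124 in WSD, a log2 fold change of -1.10 (SE 0.22, adjusted p = 0.0496). By these probe sets each of the 3 was lower on all WSD arrays than on all control arrays. Another probe set of each was negative without a call, at -1.24 for FZD4, -0.64 for DKK2 and -0.37 for HEYL. Other members of the same families lay on the higher side without a call, among them FZD7 (1.49), FZD6 (1.34) and DKK1 (1.47), and the Wnt target AXIN2 was at -0.94. EFNB1, the membrane ligand ephrin B1, read 733, 808 and 1225 in control and 172, 105 and 139 in WSD, a log2 fold change of -2.59 (SE 0.27, adjusted p = 0.0274). EPHB3, a receptor for B-type ephrins, read 40.5, 86.6 and 80.1 in control and 6.11, 7.59 and 2.79 in WSD, a log2 fold change of -1.94 (SE 0.27, adjusted p = 0.0316). Both were lower on all WSD arrays than on all control arrays, and the WSD signals of EPHB3 were below 16.

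DUSP5, a phosphatase that inactivates the kinase ERK, was the 1 of 20 immediate early genes that was called, against 3.53% of all genes. It read 102, 70.05 and 61.8 in control and 345, 315 and 196 in WSD, and its log2 fold change was 1.67 (SE 0.27, adjusted p = 0.0385), with all WSD arrays above control. FOS was at -2.11 with groups apart and EGR2 at -0.67, neither called. Of 23 heat shock and chaperone genes 2 fell, against 2.53% of all genes called lower, and none rose. The transcription factor HSF4 read 409, 436 and 375 in control and 139, 79.7 and 144 in WSD. Its log2 fold change was -1.66 (SE 0.24, adjusted p = 0.0335). Another HSF4 probe set was at -0.09 and was not called. The HSP70 partner DNAJB1 read 3932, 2845 and 3809 in control and 1842, 1263 and 991 in WSD, a log2 fold change of -1.39 (SE 0.27, adjusted p = 0.0492). The list as a whole did not move one way: HSP90AA1 was at 0.83, CRYAB at 0.91 and HSPH1 at -0.68, none of them called. Of 18 apoptosis regulators 1, CFLAR, rose, against 1.00% of all genes called higher. CFLAR, which blocks caspase-8 at death receptors, read 174, 124 and 139 in control and 494, 370.36 and 295 in WSD. Its log2 fold change was 1.29 (SE 0.24, adjusted p = 0.0445). The 3 other CFLAR probe sets were at 1.02, 1.00 and 0.94 without a call. TNFRSF10A, a death receptor for the ligand TRAIL, read 41.7, 28.3 and 30.5 in control and 149, 331 and 126 in WSD, a log2 fold change of 2.03 (SE 0.35, adjusted p = 0.0412). The groups of CFLAR and of TNFRSF10A were apart, while BAX (-0.52) and BCL2L11 (0.49) were not called.

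Lists of lipid and energy metabolism, which a change of diet makes of interest, held few calls. Of 25 genes of sterol and fatty acid synthesis 0 were called in limma, 6 had an unadjusted p under 0.05, 18 were negative, and the median was -0.30, between -0.36 and -0.17 over the settings. The groups were apart with WSD lower in 8, against 22.0% of all genes, with log2 fold changes of -1.15 for the desaturase FADS2, -1.07 for acetyl-CoA carboxylase (ACACA) and -1.03 for squalene epoxidase (SQLE). Of 25 genes of lipid storage and oxidation 0 were called in limma, 0 had an unadjusted p under 0.05, with a median of 0.09. The fatty acid carrier CD36 read 1112, 48.7 and 98.7 in control and 1681, 2681 and 59.5 in WSD, high on WSD arrays 1 and 2 and low on WSD array 3, the same split as the myeloid sum. Of 34 genes of insulin, IGF and mTOR signalling 1, PTPN1, rose, against 1.00% of all genes called higher. PTPN1, the phosphatase that acts on the insulin receptor, read 148, 154 and 156 in control and 333, 465 and 276 in WSD. Its log2 fold change was 1.12 (SE 0.22, adjusted p = 0.0496). All of its WSD arrays were above the control arrays. IRS1 (0.56), IRS2 (0.65), IGFBP3 (1.29) and MTOR (-0.70) were not called. None of 24 genes of glycolysis and hypoxia and none of 25 of mitochondrial respiration was called in limma, 2 and 2 had an unadjusted p under 0.05, and their medians of -0.06 and -0.08 lay at the median of all genes.

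Other called genes with large increases were carriers, enzymes and regulators. GLUD1, the mitochondrial glutamate dehydrogenase, read 283, 155 and 207 in control and 1337, 1003 and 1501 in WSD, a log2 fold change of 2.51 (SE 0.27, adjusted p = 0.0286). SLC6A6, the taurine transporter, read 525, 309 and 225 in control and 1509, 2495 and 1007 in WSD, a log2 fold change of 2.18 (SE 0.42, adjusted p = 0.0478). AQP3, a channel for water and glycerol, read 229, 297 and 196 in control and 1352, 1078 and 1045 in WSD, a log2 fold change of 2.20 (SE 0.21, adjusted p = 0.0274). The groups were apart in these 3 genes, and the lowest WSD values were well above the highest control values for GLUD1 and AQP3. PTHLH, the parathyroid hormone-like hormone, read 117, 67.4 and 81.5 in control and 1203, 322 and 847 in WSD, with a log2 fold change of 2.79 (SE 0.48, adjusted p = 0.0405). Another of its probe sets was called. The brightest PTHLH probe set was at 0.83 without a call, with groups that overlapped. KLF5, a zinc-finger transcription factor, read 76.3, 21.1 and 37.2 in control and 255, 230.41 and 345 in WSD, a log2 fold change of 2.35 (SE 0.35, adjusted p = 0.0353). TFPI2, an inhibitor of serine proteases, read 89.97, 41.8 and 69.6 in control and 407, 421 and 415 in WSD, a log2 fold change of 2.42 (SE 0.25, adjusted p = 0.0274), and of its 4 other probe sets 2 were called higher, while the remaining 2 were both at -0.35 without a call. The log2 fold changes of carbonic anhydrase CA13 (2.84), MLF1 (2.44), PLSCR1 (2.38), CYP3A5 (2.38) and S100A6 (2.30) also passed the threshold. Probe sets of several genes disagreed: MBLAC2 was at 4.15 by 1 probe set and called lower, at -1.35, by another. The called probe sets of SNX17 (2.49), MME (2.01) and ZNF655 (2.70) each stood beside a further probe set that was not called, at -0.16, -0.09 and 0.19. For SNX17 and ZNF655 the further probe set was the brighter one. The called probe sets of HIVEP2 (2.31) and PRKACB (2.02) stood beside 2 further, brighter probe sets each that were not called. These were at 0.37 and 0.05 for HIVEP2 and at 0.29 and 0.19 for PRKACB. The increases of these genes therefore hold for 1 probe set only. Further probe sets of S100A6 (1.69 and 1.24, both brighter), SLC6A6 (1.49 and 1.05), CYP3A5 (2.45) and NFATC1 (0.55) were higher without a call.

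Among the other large decreases, TRERF1, a zinc-finger regulator of steroid enzyme genes, read 467, 755 and 478 in control and 177, 179 and 84.3 in WSD, a log2 fold change of -1.87 (SE 0.33, adjusted p = 0.0424). CIRBP, a cold-inducible RNA-binding protein, read 754, 724 and 1039 in control and 262, 188 and 171 in WSD, a log2 fold change of -1.94 (SE 0.23, adjusted p = 0.0301). TNFAIP2 read 897, 1004 and 999 in control and 222, 231 and 295 in WSD, a log2 fold change of -1.90 (SE 0.18, adjusted p = 0.0274). All 3 were lower on every WSD array. The log2 fold changes of LOC720054 (-2.86), PLEKHH1 (-2.20), the orphan receptor GPR63 (-2.14), SPATA17 (-2.13), C18H18orf54 (-2.00), FAM200C (-1.97), RSRP1 (-1.96), IL1RAPL1 (-1.94) and ZNF202 (-1.90) passed the threshold on the lower side. Further probe sets of CIRBP (-0.29, -0.85 and -0.87), TRERF1 (-0.77 and -0.65) and ZNF202 (-0.58) were lower without a call. Across all 50 of the largest changes the adjusted p ran from 0.0274 to 0.0487.

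Levels in the WSD+T follicles are given beside these for description only, since those arrays took no part in choosing the genes but the choice fixes where WSD lies. Of the 25 largest increases, all 3 WSD+T arrays lay below all WSD arrays in 22, and 14 overlapped the control range. NFATC2 read 131, 161 and 388 and CHAC1 9.79, 10.4 and 73.1 on the WSD+T arrays, with the lowest values of both inside the control range. Of the 25 largest decreases, all WSD+T arrays lay above all WSD arrays in 18, and 20 stayed apart from control. IHH read 13.0, 234 and 18.3, MKI67 92.0, 111 and 91.2 and INHBB 21.0, 19.5 and 21.5, and all 3 genes were below every control array in WSD+T as well. The same counts were not made over all tested probe sets. Genes chosen for their extreme WSD values also favour WSD+T arrays that lie nearer to control. These counts therefore cannot show an effect of testosterone, and the difference between WSD and WSD+T was not tested here.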

How the data were processed

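Pools of small antral follicles of rhesus macaques, 9 in all and 3 per group, were read on 1-colour arrays, and the 6 control and WSD arrays were analysed here. RNA was amplified with a NuGEN kit for 3′ assays and labelled with biotin, per the labels' protocols. The deposited values are linear intensity values, MAS5 signals that the authors made, per the submitters' processing notes. The MAS5 version and any detection calls are not given in the sources used here. The mean signal after trimming 2% at each end was the same on every array, so each had been scaled to one target, and no further scaling was applied. The number of arrays limits the precision, and residual degrees of freedom were 4, with a prior of 2.67. Control probe sets (99) were left out, and the brighter part by mean log2(signal + 16) over the 6 arrays was tested (mean of at least 5.20, a signal of about 20.8). Differences were tested with limma 3.58.1 (lmFit, eBayes) in R 4.3.3, with Benjamini-Hochberg adjustment over 26383 probe sets and a threshold of 0.05. Figures were drawn with matplotlib 3.10.9. Of all probe sets, 24969 carry 1 gene symbol in the platform annotation, which can be old, 361 carry several and 27535 are unlisted there. Probe sets without a single symbol were tested but not named. On simulated data with independent probe sets, the test recovered 0, 3, 23 and 37 of 50 probe sets changed by 1.5-, 2-, 4- and 8-fold, with 1 false call among 64. Named genes were the 25 largest increases and 25 largest decreases past the threshold (by the probe set with the smallest p), up to 4 called genes per list by smallest p, genes of steroid, gonadotropin and inhibin function, and defining cell markers. Other genes of the 25 pathway lists and 13 cell marker lists are named as examples, chosen after their values were seen. The comparison, its members and the lists were chosen with earlier results of these data known. Alternatives covered the pseudocount, the filter, the scaling, the probe set rule, the fit and leaving out each array. The labels call the arrays biological replicates, and whether a female gave more than 1 array is not stated.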

Additional observations from a re-analysis of the deposited data

How the results depend on the processing

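All 75 called and named probe sets kept their direction under every alternative in which they were tested. For the fits that leave out 1 array this was fixed in advance, since the groups were apart for every called probe set. The counts did not hold. Over the fits that leave out 1 array, called probe sets ranged from 0 to 1628 (0 to 724 higher and 0 to 904 lower). Called replication genes ranged from 0 to 12 and called mitosis genes from 0 to 9. In these limma fits between 4410 and 7891 probe sets had an unadjusted p under 0.05, against 6266 with all 6 arrays. The part of the smaller number of arrays was not tested. With quantile normalization 601 probe sets were called (324 lower), after median centring 357 (203 higher, 154 lower, with 3 replication and 5 mitosis genes), and with cyclic loess 649, of which 297 were lower. A pseudocount of 64 gave 14 replication genes, and testing all 52766 probe sets left 200 higher calls. Whether the replicate numbers pair the arrays is not known. The correlations of same-numbered deviations were 0.11, -0.26 and 0.18, and 3 such values cannot decide it. With the replicate number as a block, 0 probe sets were called in limma (0 higher, 0 lower, 0 replication and 0 mitosis genes), and 5230 had an unadjusted p under 0.05. One fit over all 9 arrays, in which the tightly grouped WSD+T arrays lower the estimated spread, called 3852 (1277 higher, 2575 lower), 912 of them among the 913, with 23 replication and 19 mitosis genes. Array weights gave 9159 calls (3524 higher, 5635 lower), with 25 replication and 21 mitosis genes; the cause was not tested. Of genes that were not called, CYP19A1 turned to 0.71 with array weights, and ZP3, at 0.14 with all arrays, ranged from -0.13 without control array 3 to 0.51 without WSD array 3, with -0.12 without WSD array 2. List medians for p53 targets, hormone receptors, NRF2, lipid storage, immediate early genes, heat shock, glycolysis, respiration and Wnt and Notch changed sign between settings.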

Other observations

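Probe sets for mitochondrial transcripts, which carry no gene symbol in the annotation used and were chosen after their values were seen, split the control group. Of 6 tested probe sets with a mitochondrial identifier, 4 read less, on both control array 1 and control array 3, than the lowest of the other 7 arrays divided by 4. The probe set MmuMitochon.10.1.S1_s_at read 0.45, 4224 and 4.25 on control arrays 1, 2 and 3 and 4846, 4306 and 4852 on the WSD arrays. The probe set MmuMitochon.4.1.S1_at read 285, 4345 and 264 on the control arrays and 4209, 3857 and 4205 on the WSD arrays. On the WSD+T arrays these probe sets read 4319, 5131 and 4122, and 3818, 4699.6 and 3789.8. Control array 2 thus lay with the WSD and WSD+T arrays, and 0 of the 6 probe sets was called in limma, at adjusted p of 0.177 and 0.198 for the pair given. The 5 probe sets called without control array 2 have no gene symbol in the annotation either, and include these 2.

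Marker genes of cell types that a follicle preparation can hold are given beside the 2.53% of all genes called lower and the 22.0% apart with WSD lower. Of 12 granulosa cell markers 2 fell (IHH and INHBB), 6 were apart and lower, all 12 had a negative log2 fold change, and the median was -0.66. Of 8 theca cell markers 2 fell (PTCH1 and CYP17A1), 4 were apart and lower, and the median was -0.46. DLK1 was at -0.98 and ANPEP at -0.39, and on the other side STAR was at 0.34 and FDX1 at 0.27, none of them called, although a dimmer FDX1 probe set was called higher, at 1.18. Of 10 oocyte markers 0 were called in limma, 2 at an unadjusted p under 0.05, and the median was 0.03; the zona protein gene ZP3 read 297, 261 and 152 in control and 302, 365 and 143 in WSD and ZP4 had a log2 fold change of 1.04. Of 12 endothelial markers 1 fell, ESM1, with a log2 fold change of -1.69. SELE had a larger decrease, -2.18, with groups apart and an adjusted p of 0.0656 in limma that missed the threshold. Of the 12 markers, 7 had a positive and 5 a negative log2 fold change. PECAM1 (0.54), CDH5 (0.25) and TEK (-0.50) were not called. Of 10 fibroblast and stroma markers 1 fell, LUM, and of 7 smooth muscle markers 0 were called, 1 at an unadjusted p under 0.05. HSD3B2 was the 1 called gene of 3 luteal markers. The tested markers of neutrophils (2), lymphocytes (2), erythrocytes (1) and adipocytes (4) had 0 calls in limma, with 2 adipocyte markers at an unadjusted p under 0.05.

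Within the WSD group, some genes spanned a wide range of signals. CCL18, a macrophage chemokine, had the widest range over the WSD arrays of any tested named probe set, 3488, 4191 and 4.00, with 1855, 3.24 and 112 in control. ADA2 read 1268, 2291 and 12.1 in WSD, and TREM1 829, 1824 and 8.69. All 3 were high on WSD arrays 1 and 2 and low on WSD array 3, the order of the myeloid marker sums.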
